A study of Mus musculus with 24 samples.

Results

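A group of 9 matrix remodelling genes was followed through the circadian day in mouse epididymal fat (eWAT). They are Lox, Loxl1, Loxl2, Fn1, Adamts5, Timp1, Timp3, Mmp2 and Sparc, taken by symbol, and collagen genes were not included. Of the 9, 8 were among the 22180 genes with a probe set of their own, with 1 probe set each. Loxl2 had only 2 probe sets that also list Gm21451, so that no value can be given to it. Of the 8, 7 passed the level filter, which keeps genes with a mean log2 signal of at least 7.416, and Timp1 lay just under it at 7.407. The tests below therefore cover 7 members among 15526 genes.

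Extracellular matrix is secreted mainly by fibroblasts and other stromal cells and is rebuilt all the time. Lysyl oxidases (Lox, Loxl1, Loxl2) cross-link collagen and elastin fibres, fibronectin (Fn1) forms a scaffold to which cells hold through integrins, and Sparc is a matricellular, collagen-binding glycoprotein. Metalloproteinases such as Mmp2 (gelatinase A) and Adamts5 (aggrecanase-2, which cuts proteoglycans of the aggrecan and versican family) take the matrix apart, and the tissue inhibitors Timp1 and Timp3 hold such enzymes in check. In fat, the matrix around adipocytes has to give way when the cells enlarge.

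The series holds 24 Affymetrix arrays of total RNA, 1 per sample, with no pooling of mice named in the labels. The 4 MUT groups carried Syt10-Cre/Cre with Bmal1-flox/-, and the 4 CON groups carried Syt10-Cre/Cre with Bmal1-+/-. Both genotypes thus share a homozygous Cre driven from the Syt10 gene and 1 Bmal1 null allele. By the labels, MUT mice lack a functional clock in the SCN, the suprachiasmatic pacemaker of the hypothalamus. Which other cells the Cre reached was not measured, and ages are not given in the labels. All mice spent 2 weeks in a light-dark cycle, were moved to constant darkness and were killed on day 2 at circadian time (CT) 1, 7, 13 or 19, with 3 samples per genotype and time.

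Titles and treatment text name eWAT, whereas the source field names mediobasal hypothalamus. Ranked by mean signal among all genes, the median adipocyte marker (9 of 10 measured) stood at percentile 99.8, and the median marker of hypothalamus and neurons (12 of 13 measured) at 46.4. Arntl, the gene symbol of Bmal1, averaged 8.49, 8.19, 9.52 and 9.15 at CT1, 7, 13 and 19 in MUT. In CON it averaged 8.95, 8.07, 8.36 and 9.54. Its highest group was thus at CT13 in MUT and at CT19 in CON. The genotypes are compared below at the same circadian time, without alignment to the timing of Arntl in the fat. Syt10 averaged 7.33 to 7.49 over the MUT groups and 7.51 to 7.62 over the CON groups. Array medians ran from 7.802 to 7.936 on the log2 scale. Of all arrays, CON CT13 replicate 1 and CON CT7 replicates 2 and 3 had the narrowest spread of signals (interquartile ranges of 1.942, 1.953 and 1.968). The next was CON CT13 replicate 2 at 1.984 and the widest 2.185, so no wide gap sets the 3 arrays apart. Calls of members that ended without these 3 arrays are named as such. For the other listed genes such calls are in part given only as counts, so an unmarked call there need not have held. All values below are log2 signals per probe set. Probe sets differ in brightness, so the marker ranks are a coarse check of the tissue. Below, signal levels are compared within each gene, apart from the rank of Timp1. Sizes of change are also set between genes.

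Of the members, Lox, Fn1 and Adamts5 were higher in MUT fat when the whole day was averaged, and none was lower. The Fn1 call ended in 2 of the alternative settings. Lox, Fn1 and Adamts5 all dipped at CT7 in CON fat, where their lowest group lay. Adamts5 had the widest daily swing of the members in CON. Its fitted swing was 0.31 in MUT and 1.25 in CON, but the direct test of the difference did not pass (adjusted p = 0.141 in limma). Timp3 was the member whose daily pattern differed between the genotypes by the test, a call that ended without any 1 of 10 arrays. Its daily mean was 11.51 in MUT and 11.49 in CON. Loxl1, Mmp2 and Sparc passed no test.

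**Figure D1:**
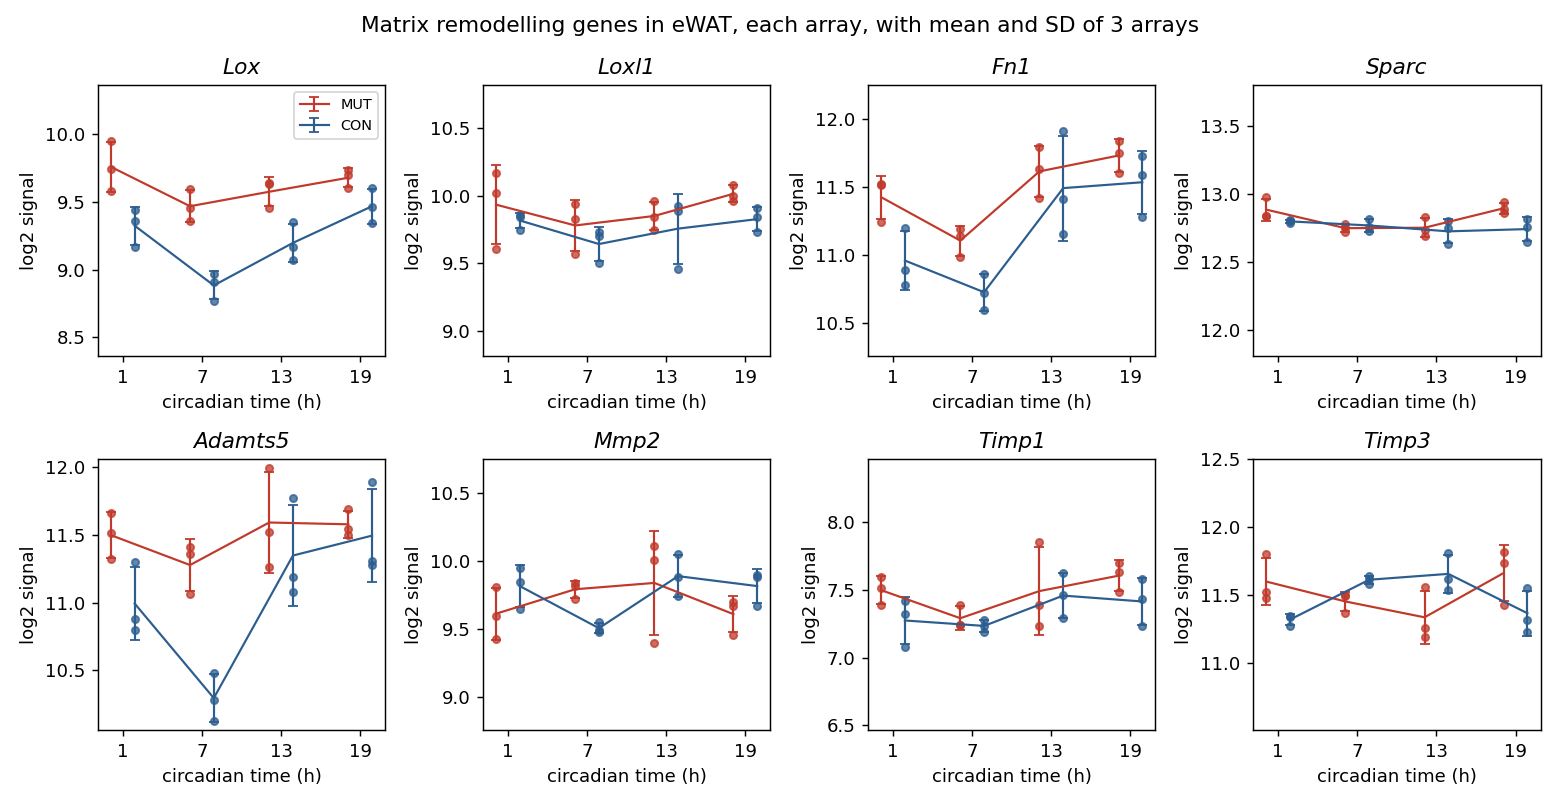
Log2 signal of the 8 members with a probe set of their own (y axis, each panel spanning 2 log2 units) at circadian time 1, 7, 13 and 19 h (x axis), MUT in red and CON in blue, offset sideways. Dots are arrays, and lines join means with SD of 3 arrays. Lox, Fn1 and Adamts5 dip at CT7, deeper in CON, and the curves of Timp3 cross.

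Lox encodes lysyl oxidase, the founding collagen and elastin cross-linking enzyme of its family. In MUT its 3 arrays read 9.58, 9.74 and 9.95 at CT1, 9.59, 9.45 and 9.36 at CT7, 9.45, 9.63 and 9.64 at CT13, and 9.73, 9.60 and 9.70 at CT19. In CON they read 9.44, 9.17 and 9.36 at CT1, 8.97, 8.77 and 8.91 at CT7, 9.07, 9.17 and 9.35 at CT13, and 9.60, 9.34 and 9.46 at CT19. Every MUT array lay above every CON array at CT1, CT7 and CT13, while at CT19 the genotypes overlapped. In order of level all 4 MUT groups came first, from 9.76 ± 0.18 at CT1 (SD, n = 3) down to 9.47 ± 0.12 at CT7. The CON groups followed at 9.47 ± 0.13 (CT19), 9.32 ± 0.13 (CT1), 9.20 ± 0.14 (CT13) and 8.88 ± 0.10 (CT7). Only CON at CT7 was separated from its neighbour in this order. Arrays of all other neighbours overlapped.

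Over the day Lox averaged 9.62 in MUT and 9.22 in CON. The difference of 0.40 ± 0.05 (SE, 1.32-fold) passed at an adjusted p of 0.000187 in limma's moderated test. Adjusted p-values here are Benjamini-Hochberg values over all 15526 genes, with 0.05 as the threshold. At that threshold 21.7% of all genes differed in the daily mean and 12.3% were higher in MUT, against 3 of the 7 tested members, all higher. The size of the Lox difference was at or above that of 99.6% of genes. Bulk tissue was measured, so a change in the share of a cell type and a change in RNA per cell cannot be told apart here or below.

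Loxl1, which encodes a cross-linking enzyme acting mostly on elastin, ran from 9.57 to 10.17 over the MUT arrays and from 9.46 to 9.92 over the CON arrays. The genotypes overlapped at every time except CT19, where MUT arrays (9.96 to 10.08) lay above CON arrays (9.73 to 9.91). Its daily means were 9.89 in MUT and 9.76 in CON, a difference of 0.13 ± 0.06 (95% confidence interval 0.00 to 0.26, adjusted p = 0.122 in limma). The fitted swings were 0.25 ± 0.12 in MUT and 0.19 ± 0.12 in CON, and neither passed (adjusted p of 0.523 and 0.477). All neighbours in the order of the 8 groups overlapped.

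Fn1 encodes fibronectin. Its MUT arrays read 11.24, 11.52 and 11.51 at CT1, 10.98, 11.14 and 11.19 at CT7, 11.42, 11.79 and 11.63 at CT13, and 11.84, 11.75 and 11.60 at CT19. The CON arrays read 10.78, 11.20 and 10.89 at CT1, 10.86, 10.59 and 10.72 at CT7, 11.41, 11.15 and 11.91 at CT13, and 11.59, 11.28 and 11.73 at CT19. The MUT arrays were all above the CON arrays at CT1 and CT7 and overlapped with them at CT13 and CT19. The highest groups were MUT at CT19 (11.73 ± 0.12, SD, n = 3) and at CT13 (11.61 ± 0.19), and the lowest was CON at CT7 (10.72 ± 0.14). In the order of groups the 1 gap between neighbours without overlap lay between MUT at CT1 (11.42 ± 0.16) and MUT at CT7 (11.11 ± 0.11).

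The daily mean of Fn1 was 11.47 in MUT and 11.18 in CON, a difference of 0.29 ± 0.08 (SE, 1.23-fold, adjusted p = 0.0119 in limma). This call ended with the mesothelium marker score as a covariate (0.18, adjusted p = 0.119) and without the 3 arrays of narrow spread (0.25, adjusted p = 0.124).

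Sparc, the matricellular glycoprotein, stayed within a narrow range on this scale. Its MUT arrays spanned 12.69 to 12.98 and its CON arrays 12.63 to 12.82. MUT arrays lay above CON arrays at CT1 (12.84 to 12.98 against 12.79 to 12.81) and at CT19 (12.86 to 12.94 against 12.65 to 12.82). The daily means were 12.82 in MUT and 12.76 in CON, and the difference of 0.06 ± 0.03 did not pass (95% confidence interval 0.00 to 0.13, adjusted p = 0.142 in limma).

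Adamts5 encodes a secreted protease that cleaves proteoglycans. Its MUT arrays read 11.32, 11.51 and 11.66 at CT1, 11.36, 11.41 and 11.06 at CT7, 11.52, 11.99 and 11.26 at CT13, and 11.50, 11.69 and 11.54 at CT19. The CON arrays read 11.30, 10.80 and 10.88 at CT1, 10.28, 10.48 and 10.13 at CT7, 11.08, 11.19 and 11.77 at CT13, and 11.89, 11.31 and 11.28 at CT19. Every MUT array was above every CON array at CT7 and, by a narrow margin, at CT1, whereas the groups overlapped at CT13 and CT19. The MUT group means stayed within 0.31 of each other, and the CON group means spanned 1.2 (2.29-fold). CON at CT7, with 10.30 ± 0.17 (SD, n = 3), was apart from the group next to it, CON at CT1 with 10.99 ± 0.27. All other neighbours in the order overlapped.

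The daily mean of Adamts5 was 11.49 in MUT and 11.03 in CON, a difference of 0.45 ± 0.09 (SE, 1.37-fold, adjusted p = 0.00426 in limma). Its size was at or above that of 99.8% of all genes. Without the 3 arrays of narrow spread it was 0.425 (adjusted p = 0.0499).

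Mmp2, the gelatinase, spanned 9.40 to 10.11 over the MUT arrays and 9.48 to 10.05 over the CON arrays. At CT7 its MUT arrays (9.72 to 9.84) lay above the CON arrays (9.48 to 9.55), and at the other times the genotypes overlapped. CON at CT7 was the lowest of its 8 groups (9.51 ± 0.04, SD, n = 3), as for Lox, Fn1 and Adamts5. The daily means were 9.71 in MUT and 9.76 in CON, and the difference of -0.04 ± 0.07 did not pass (95% confidence interval -0.18 to 0.09, adjusted p = 0.643 in limma).

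Timp1, which encodes a broad inhibitor of metalloproteinases, was dim. Its arrays ran from 7.23 to 7.85 in MUT and from 7.08 to 7.62 in CON, at the 29.8th percentile of mean signal, and the genotypes overlapped at all 4 times. When all 22180 genes were tested with no level filter, its daily mean difference was 0.12 ± 0.06 (adjusted p = 0.155 in limma), and its fitted swings were 0.31 ± 0.12 in MUT and 0.26 ± 0.12 in CON (adjusted p of 0.424 and 0.326).

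Timp3 encodes the inhibitor that binds to the matrix itself and also acts on ADAMTS enzymes. Its MUT arrays read 11.80, 11.48 and 11.52 at CT1, 11.37, 11.50 and 11.49 at CT7, 11.26, 11.56 and 11.19 at CT13, and 11.82, 11.74 and 11.43 at CT19. Its CON arrays read 11.34, 11.27 and 11.35 at CT1, 11.64, 11.62 and 11.58 at CT7, 11.54, 11.62 and 11.81 at CT13, and 11.55, 11.23 and 11.32 at CT19. MUT was above CON without overlap at CT1, and below CON without overlap at CT7. At CT13 MUT averaged 11.34 and CON 11.66, and at CT19 MUT averaged 11.66 and CON 11.36, with overlapping arrays at both. In the order of the 8 groups all neighbours overlapped. The daily mean difference was 0.02 ± 0.05 (95% confidence interval -0.09 to 0.14, adjusted p = 0.769 in limma).

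The sequence upstream of Timp3 is shown because this member carries the one difference in daily pattern. It is the 250 bases before the gene's start in RefSeq, GRCm38.p6, chr10:86300162-86300411, plus strand, with 65.6% G and C.
Timp3: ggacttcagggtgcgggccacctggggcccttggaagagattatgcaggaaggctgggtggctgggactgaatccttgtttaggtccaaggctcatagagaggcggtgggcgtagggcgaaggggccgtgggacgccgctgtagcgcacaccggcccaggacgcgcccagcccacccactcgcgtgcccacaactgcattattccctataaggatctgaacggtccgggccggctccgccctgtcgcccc
No letters are capitalised because none of the motifs searched on both strands was found in this window: the E-box CACGTG, the D-box forms TTATGTAA and TTACGTAA, the cAMP response element TGACGTCA and the AP-1 site TGANTCA. Of 32851 promoter windows of the same length, 6.02% hold that E-box, 0.819% and 0.113% the D-box forms, 1.55% the cAMP response element and 6.75% the AP-1 site. The promoter table held 3 of the 9 members, and in the same annotation Timp3 and Timp1 lie within the spans of Syn3 and Syn1.

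A rhythm was measured as the peak-to-trough of a 24-h cosine fitted to the 4 time points, and tested with a moderated F test in limma. In MUT 0 of the 7 tested members passed, against 0.348% of all genes. In CON 4 of 7 passed, against 17.1% of all genes. At an unadjusted p under 0.05 the members numbered 4 in MUT and 4 in CON, beside 14.6% and 33.7% of all genes. The median fitted swing of the 7 members was 0.29 in MUT and 0.42 in CON, beside 0.13 and 0.18 for all genes.

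Adamts5 swung by 0.31 ± 0.19 in MUT (SE, adjusted p = 0.618) and by 1.25 ± 0.19 in CON (2.38-fold, adjusted p = 0.000551), where it peaked at CT17.9 ± 0.576 h. Its CON swing was at or above that of 99.7% of all genes. Fn1 swung by 0.65 ± 0.15 in MUT (adjusted p = 0.0932) and by 0.97 ± 0.15 in CON (1.96-fold, adjusted p = 0.000804). The fitted peaks of Fn1 lay at CT17.9 in MUT and CT16.8 in CON. Its MUT swing passed without CON CT13 replicate 3 (adjusted p = 0.0329) and with array weights (adjusted p = 0.0157).

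Lox swung by 0.28 ± 0.10 in MUT (adjusted p = 0.300) and by 0.59 ± 0.10 in CON (1.51-fold, adjusted p = 0.00138), with a CON peak at CT19.8 ± 0.635 h. Timp3 swung by 0.34 ± 0.11 in MUT (adjusted p = 0.242) and by 0.42 ± 0.11 in CON (1.34-fold, adjusted p = 0.0292). Its fitted CON peak lay at CT10.6 ± 0.999 h, late in the subjective day. Its highest CON group mean was at CT13 (11.66), with CT7 next (11.61), so a peak before the subjective night is not firmly placed. The fitted CON peaks of Lox, Fn1 and Adamts5 lay in the subjective night. The fitted MUT peak of Timp3 was at CT22.4, from a curve that did not pass. The call for Timp3 in CON ended without any 1 of 6 CON arrays (replicates 1, 2 and 3 at CT1, replicate 3 at CT13, replicates 2 and 3 at CT19), with adjusted p up to 0.0732. It also ended with arrays shifted to the same median (adjusted p = 0.0597) and in a test without a cosine (adjusted p = 0.0620). Without the 3 arrays of narrow spread Lox (adjusted p = 0.0773) and Timp3 (adjusted p = 0.0854) were no longer called in CON, whereas Fn1 (adjusted p = 0.0285) and Adamts5 (adjusted p = 0.0137) were.

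Mmp2 swung by 0.29 ± 0.13 in MUT and 0.32 ± 0.13 in CON (adjusted p of 0.455 and 0.196). Sparc swung by 0.20 ± 0.06 in MUT and 0.08 ± 0.06 in CON (adjusted p of 0.222 and 0.580).

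**Figure D2:**
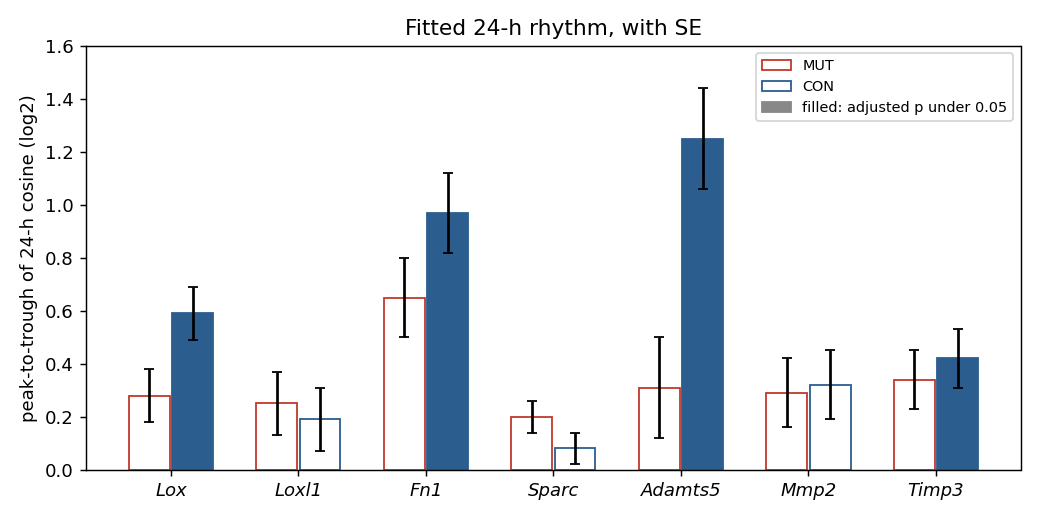
Peak-to-trough of the fitted 24-h cosine (y axis, log2) for the 7 tested members (x axis), MUT in red and CON in blue, with SE. Filled bars passed at an adjusted p under 0.05: Lox, Fn1, Adamts5 and Timp3 in CON, and no bar in MUT.

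Whether a rhythm differed between the genotypes was tested directly, as the difference of the fitted cosines. Of the 7 members 1 passed, Timp3, against 1.44% of all genes. The peak-to-trough of its difference curve was 0.76 ± 0.15 (SE, adjusted p = 0.0300 in limma). This call ended without any 1 of 10 arrays (CON CT1 replicate 2, CON CT7 replicates 1 and 3, CON CT19 replicate 2, MUT CT1 replicate 1, MUT CT7 replicates 1 and 3, MUT CT13 replicate 3, and MUT CT19 replicates 1 and 2), with adjusted p up to 0.0629. It also ended with arrays shifted to the same median (adjusted p = 0.0544), without a cosine (adjusted p = 0.0507) and without the 3 arrays of narrow spread (adjusted p = 0.0628).

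The difference curve of Adamts5 was larger, 0.94 ± 0.27, but did not pass (adjusted p = 0.141), and passed only with array weights (adjusted p = 0.0461). Lox (0.38 ± 0.14, adjusted p = 0.298), Fn1 (0.39 ± 0.21, adjusted p = 0.556), Mmp2 (0.52 ± 0.19, adjusted p = 0.292), Sparc (0.18 ± 0.09, adjusted p = 0.483) and Loxl1 (0.05 ± 0.18, adjusted p = 0.982) did not pass either. For Lox, Fn1 and Adamts5 a rhythm called in CON and not called in MUT is therefore not shown to differ between them.

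At single time points MUT was set against CON with 3 arrays each. At CT7, 2 of the 7 members passed, both higher in MUT, against 4.05% of all genes called and 2.98% called higher. Adamts5 was 0.98 ± 0.19 higher (1.97-fold, adjusted p = 0.00641) and Lox 0.58 ± 0.10 higher (1.5-fold, adjusted p = 0.00202) in limma. The CT7 calls of both ended without the 3 arrays of narrow spread, which leaves 1 CON array at that time, assumed to vary like the other groups (0.998, adjusted p = 0.109 for Adamts5 and 0.498, adjusted p = 0.124 for Lox). At CT7 Fn1 differed by 0.38 ± 0.15 (adjusted p = 0.148, and 0.0225 with array weights) and Mmp2 by 0.29 ± 0.13 (adjusted p = 0.226).

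At CT1, 0 of 7 members passed in limma, against 0.0451% of all genes, and 4 had an unadjusted p under 0.05: Lox (0.44 ± 0.10), Fn1 (0.47 ± 0.15), Adamts5 (0.51 ± 0.19) and Timp3 (0.28 ± 0.11), with adjusted p from 0.0862 to 0.307. Of all genes 11.5% had an unadjusted p under 0.05 at CT1, 19.8% at CT13 and 22.8% at CT19. At CT13 the count was 0, against 0.322% of all genes, and 2 members had an unadjusted p under 0.05, Lox at 0.38 ± 0.10 (adjusted p = 0.0826) and Timp3 at -0.32 ± 0.11 (adjusted p = 0.148). At CT19 it was 0, against 2.74%, with an unadjusted p under 0.05 for Timp3 (0.30 ± 0.11), Lox (0.21 ± 0.10) and Sparc (0.15 ± 0.06). MUT arrays lay above CON arrays without overlap for 5 of the 7 tested members at CT1 (10% of all genes), 4 at CT7 (15.2%), 1 at CT13 (10%) and 2 at CT19 (14%). They lay below for 1 member, Timp3 at CT7 (10.3% of all genes), and for none at CT1, CT13 and CT19 (8.85%, 12.2% and 13.3%).

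**Figure D3:**
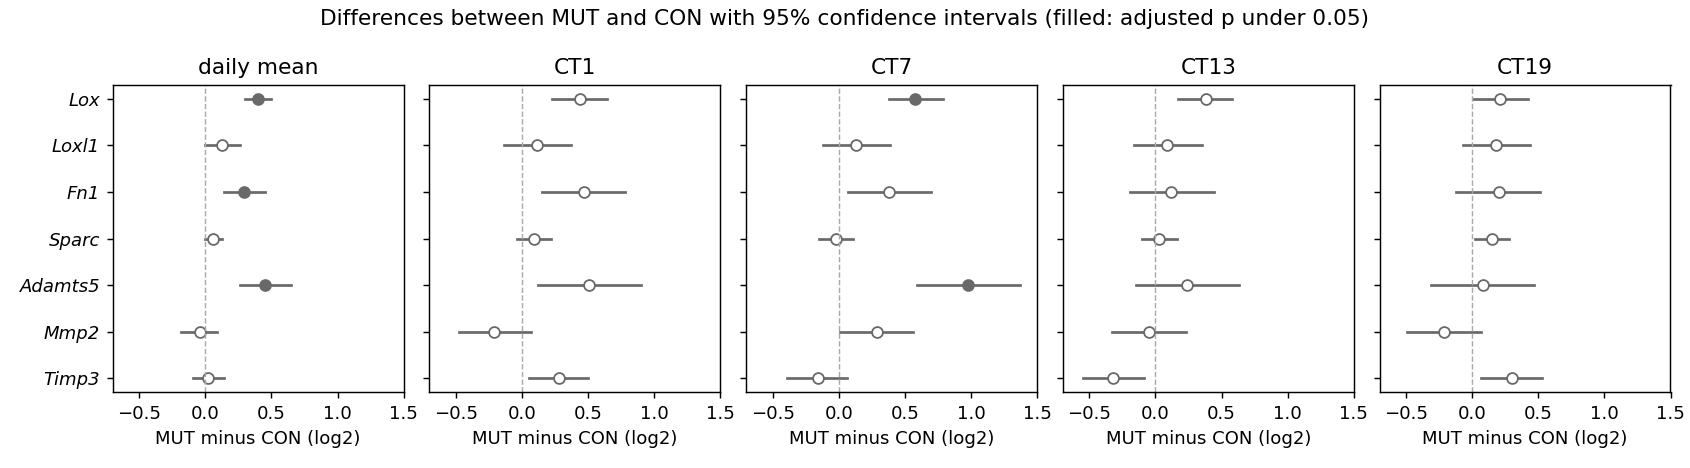
Difference MUT minus CON (x axis, log2) with 95% confidence intervals for the 7 tested members (rows), for the daily mean and for each circadian time (panels). Filled points passed at an adjusted p under 0.05: Lox, Fn1 and Adamts5 in the daily mean, and Lox and Adamts5 at CT7.

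Markers of stromal and surface cells moved with the CON dip at CT7. The mesothelium score of an array, the median deviation of 8 markers such as Msln and Upk3b from their own means, was -0.56, -0.18 and 0.16 in the lowest, median and highest MUT array at CT7 and -0.70, -0.64 and -0.61 in CON at CT7. At CT19 it was 0.15, 0.54 and 0.62 in MUT and 0.13, 0.23 and 0.37 in CON. The score of 7 fibroblast and preadipocyte markers such as Dcn and Pi16 at CT7 was -0.12, 0.01 and 0.05 in MUT and -0.42, -0.30 and -0.26 in CON, and at CT19 it was 0.04, 0.17 and 0.30 in MUT and 0.06, 0.22 and 0.27 in CON. The macrophage score at CT7 was -0.22, -0.17 and -0.16 in MUT and -0.31, -0.29 and -0.27 in CON. The smooth muscle and pericyte score at CT7 was 0.03, 0.03 and 0.28 in MUT and -0.18, -0.14 and -0.14 in CON, and at CT1 it was 0.02, 0.07 and 0.08 in MUT and -0.08, -0.06 and 0.00 in CON. The medians of these 4 scores were lowest in CON at CT7. The endothelium score overlapped at CT7 (-0.07, 0.02 and 0.05 in MUT, -0.16, -0.09 and 0.11 in CON). In the same fit 7 of 8 mesothelium, 4 of 7 fibroblast and preadipocyte, 4 of 8 endothelium, 3 of 8 macrophage and 1 of 8 smooth muscle and pericyte markers passed for a rhythm in CON, and 0 of each in MUT. Of all genes 17.1% passed in CON and 0.348% in MUT. The macrophage score correlated with Fn1 at r = 0.84 over the 24 arrays and 0.81 within groups. For Fn1 these values were 0.86 and 0.58 with the mesothelium score, and 0.75 and 0.41 with the fibroblast and preadipocyte score. With the macrophage score they were 0.61 and 0.18 for Adamts5 and 0.45 and 0.33 for Lox. With the mesothelium score they were 0.78 and 0.44 for Adamts5 and 0.55 and 0.02 for Lox. With the fibroblast and preadipocyte score they were 0.64 and 0.02 for Adamts5 and 0.39 and -0.26 for Lox. The part of the smooth muscle, endothelium and macrophage markers in the results was not tested. Adipocyte scores stayed between -0.11 and 0.08 on all arrays.

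With the mesothelium score as a covariate Fn1 (0.58, adjusted p = 0.0656) and Adamts5 (0.87, adjusted p = 0.0554) were no longer called rhythmic in CON. With the fibroblast and preadipocyte score Fn1 swung by 0.60 (adjusted p = 0.166) and Adamts5 by 1.22 (adjusted p = 0.0591). The CT7 difference of Adamts5 was then 0.97 (adjusted p = 0.0693). Without a score these Adamts5 sizes were 1.25 and 0.98, so they hardly changed while the calls ended. Over all genes, calls for a rhythm in CON fell from 2650 to 930 with this score. Lox in CON passed with either score (0.59, adjusted p = 0.0140 and 0.73, adjusted p = 0.0137), and so did Timp3 (0.60, adjusted p = 0.00311 and 0.52, adjusted p = 0.0386). The daily mean differences of Lox and Adamts5 also passed with either score, at 0.40 and 0.42 for Lox and at 0.35 and 0.45 for Adamts5.

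**Figure D4:**
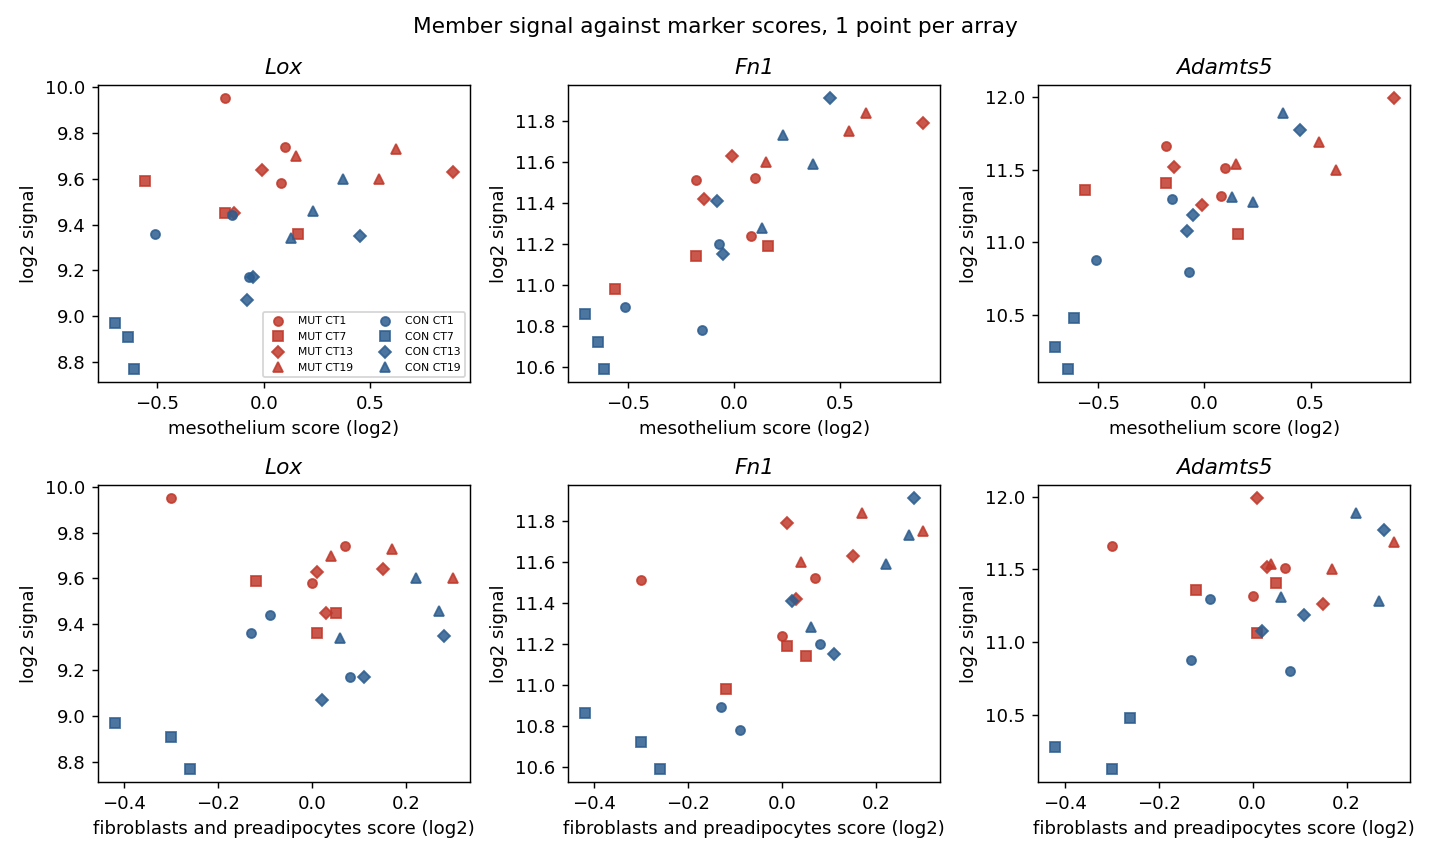
Log2 signal of Lox, Fn1 and Adamts5 (y axes) against the mesothelium score (upper row) and the fibroblast and preadipocyte score (lower row) of the same array (x axes, log2), 1 point per array, MUT in red and CON in blue, with a symbol per time. The 3 CON arrays at CT7 (blue squares) stand at the lower left in each panel, and for Lox the MUT arrays run from 9.36 to 9.95 and the CON arrays from 8.77 to 9.60.

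By the correlation of log2 signal over the 24 arrays, given as a description across arrays that share groups and tissue makeup, the genes most like Adamts5 were Tgfb3, Cryab, Bmp2k, Anxa1 and Hip1 (r from 0.91 to 0.93). Tgfb3 encodes a transforming growth factor beta ligand. The genes most like Fn1 were Lyz1 (r = 0.95), Mfap5, Prss23, Ecm1 and Lsp1 (r = 0.91 each), of which Lyz1 encodes a lysozyme and Mfap5 a microfibril protein. Those most like Lox were Eif5, Dnm1l, Rps6ka3, Stk24 and Extl3 (r from 0.88 to 0.90), which are not on the list of other matrix remodelling genes below.

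Beyond the members, 64 of 75 listed matrix remodelling genes were tested, while 3 lay under the level filter and 8 had no probe set of their own. Of these, 14 differed in the daily mean, 13 higher and 1 lower in MUT (21.7% of all genes called, 12.3% higher and 9.42% lower). The median difference of the 64 was 0.06, beside 0.00 for all genes. For rhythms 0 of 64 passed in MUT and 18 in CON (0.348% and 17.1% of all genes), and 3 passed for a rhythm that differed (1.44%). At CT1, CT7, CT13 and CT19 the numbers that passed were 0, 5, 0 and 3, all higher in MUT (2.98% of all genes were called higher at CT7 and 1.93% at CT19). At CT7 the differences were 0.78 for Timp4, 0.43 for Timp2, 0.43 for Mfap5, 0.35 for Reck and 0.61 for Tgfb3. With the 3 CON arrays of narrow spread left out they were 0.88, 0.51, 0.55, 0.33 and 0.51. Many calls nevertheless ended without these 3 arrays, which left 1 CON array at CT7. Without them 9 of the 18 were still called rhythmic in CON, 2 of the 14 in the daily mean (Timp4 and Tgfb3), 0 of the 3 for a rhythm that differed, 0 of the 5 at CT7 and 2 of the 3 at CT19 (Tnc and Fbln5). Of the 18, 66.7% peaked between CT15 and CT21, beside 38.7% of all genes rhythmic in CON.

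Among cross-linking and assembly genes Loxl3 and Loxl4 passed no test, and Serpinh1, which encodes a collagen chaperone, was rhythmic in CON (0.58 ± 0.12, CT19.0; adjusted p = 0.0700 without the 3 arrays). Of the 15 tested proteases and activators 5 were rhythmic in CON, beside 17.1% of all genes. Beside the CT17.9 peak of Adamts5, Adamts12 (1.11 ± 0.16) peaked at CT2.81 and Adamts9 (0.75 ± 0.16) at CT2.31, while Adamts1 (0.94 ± 0.27), named after its values were seen, peaked at CT16.3. Mmp14, the membrane-bound protease that activates pro-MMP2, peaked at CT22.9 in CON (0.44 ± 0.08), and its rhythm differed between genotypes (0.53 ± 0.12, adjusted p = 0.0497 in limma). The call for its rhythm difference ended without the 3 arrays. Adamts15 was the 1 listed gene lower in MUT in the daily mean (-0.14 ± 0.05, adjusted p = 0.0322, and 0.152 without the 3 arrays).

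Timp2 and Timp4, of the same family as Timp3, were rhythmic in CON and peaked in the subjective night. Timp4, an inhibitor abundant in fat and heart, averaged 12.24, 12.19, 12.31 and 12.33 at CT1, 7, 13 and 19 in MUT and 11.62, 11.42, 12.28 and 12.25 in CON. It was higher in MUT in the daily mean (0.38 ± 0.06, adjusted p = 0.00146) and at CT7 (0.78 ± 0.13, adjusted p = 0.00169), and its rhythm differed (0.91 ± 0.18, adjusted p = 0.0224). Timp4 and Timp2 (0.75 ± 0.11) peaked in CON at CT16.5 and CT17.5, and Serpinf1, which encodes the secreted serpin PEDF, at CT16.5 (0.47 ± 0.14), beside CT10.6 for Timp3. Timp2 and Reck, which encodes a membrane-anchored inhibitor, were also higher in MUT at CT7, by 0.43 ± 0.11 and 0.35 ± 0.10, and Reck also in the daily mean (0.19 ± 0.05). At CT7, 3 of the 4 tested genes that the list groups under protease inhibitors, Serpinf1 among them, thus passed. This stands beside 4.05% of all genes called and 2.98% called higher. Without the 3 arrays 0 of the 4 passed there, with adjusted p of 0.0515 for Timp4 (0.88 ± 0.19), 0.187 for Timp2 and 0.333 for Reck. The rhythms of Timp4 and Timp2 in CON and the daily mean difference of Timp4 were still called. The rhythm of Serpinf1 in CON, the rhythm difference of Timp4 and the daily mean difference of Reck were not.

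Of the 7 receptor genes 3 were higher in MUT in the daily mean, beside 12.3% of all genes. They were Itgb1 (0.23 ± 0.05) and Itga5 (0.17 ± 0.05), which encode the subunits of the classical fibronectin receptor, and Itgav (0.12 ± 0.04). Their adjusted p ran from 0.00555 to 0.035 in limma. Sdc4, a heparan sulfate co-receptor for fibronectin, was rhythmic in CON (0.37 ± 0.10, CT18.4). None of these 4 calls held without the 3 arrays (adjusted p from 0.0821 to 0.304). Of the TGF-beta pathway Tgfb3 (0.34 ± 0.05) and Tgfb1 (0.14 ± 0.05) were higher in the daily mean. The Tgfb1 call ended without the 3 arrays (0.11). Tgfb3 was also higher at CT7 (0.61 ± 0.09, adjusted p = 0.000841) and rhythmic in CON (0.65 ± 0.09, CT17.6), as was the receptor gene Tgfbr2 (0.45 ± 0.09, CT18.8; adjusted p = 0.122 without the 3 arrays). The rhythm and daily mean of Tgfb3 were still called without them, and its CT7 difference was not (0.51 ± 0.14, adjusted p = 0.107). Of 12 elastic, basement and proteoglycan genes 5 were higher in the daily mean, beside 12.3% of all genes. Those of smallest p were Nid1 (0.18 ± 0.04), Fbln5 (0.32 ± 0.08) and Mfap5 (0.21 ± 0.06). In CON, Mfap5 (0.82 ± 0.11) peaked at CT17.7 and Fbln1 (0.68 ± 0.16) at CT17.6, whereas the laminin gene Lamb1 (0.39 ± 0.09) peaked at CT4.32. Mfap5 was higher in MUT at CT7 (0.43 ± 0.11), and Fbln5 (0.69 ± 0.17) and the perlecan gene Hspg2 (0.33 ± 0.09) at CT19. Of the named calls of this role, the rhythm of Mfap5 and the CT19 difference of Fbln5 held without the 3 arrays. Of 8 matricellular genes 1 was higher in the daily mean, beside 12.3% of all genes: Sparcl1, a relative of Sparc (0.11 ± 0.04, adjusted p = 0.0478 in limma). The Sparcl1 call ended without the 3 arrays. Tnc, which encodes tenascin C, peaked at CT5.15 in CON (0.71 ± 0.09), outside the CT15 to CT21 window of most listed genes rhythmic in CON. Tnc was 0.42 ± 0.09 higher in MUT at CT19, and its rhythm differed between the genotypes (0.66 ± 0.13, adjusted p = 0.0284). Without the 3 arrays its CON rhythm and CT19 difference were still called, and its rhythm difference was not.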

How the data were processed

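The deposited values are log2 signals per probe set, made by the authors with RMA and Affymetrix Expression Console, per the submitters' processing notes. Their versions and settings are not stated. Of 34390 probe sets 23521 list 1 symbol, 1814 several and 9055 none. Symbols were updated by Entrez identifier to GRCm38.p6. For each of 22180 genes the probe set with the highest mean stood for the gene, and a level filter at the 30th percentile followed.

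A cell-means model over all 24 arrays (16 residual degrees of freedom) was fitted with limma 3.58.1 in R 4.3.3 and tested on simulated data. P-values were adjusted over 15526 genes by the Benjamini-Hochberg method. The labels do not describe the mice further, so p-values measure the spread between these samples, and their number limits precision. Named beyond the members were, per role and comparison, up to 3 listed genes of smallest p past the threshold, and the 5 genes most like Lox, Fn1 and Adamts5. Members, lists and alternatives were chosen with earlier results of these data known, the rhythms of Lox and Fn1 among them, which are thus no independent support. Figures were drawn with matplotlib 3.10.9.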

Additional observations from a re-analysis of the deposited data

Results flagged for a closer look

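The rhythm of Timp3 differed between MUT and CON by the test of the difference, with a peak-to-trough of the difference curve of 0.76 (adjusted p = 0.0300 in limma). This call ended without any 1 of 10 arrays (adjusted p up to 0.0629), with arrays shifted to the same median (0.0544), without a cosine (0.0507) and without the 3 CON arrays of narrow spread (0.0628). The arrays of Timp3 were also apart in opposite directions at neighbouring times: MUT was 0.28 above CON at CT1 and differed by -0.16 at CT7, without overlap. This change of direction between CT1 and CT7 was not tested on its own. No group of this series exceeds 3 arrays, so single arrays were not tested as outliers.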

How the results depend on the processing

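Of the 7 tested members, 4 were rhythmic in CON, 0 in MUT and 1 differed in rhythm, 3 differed in the daily mean and 0, 2, 0 and 0 at CT1, 7, 13 and 19. With arrays shifted to the same median the count for CON rhythms was 3, for a rhythm that differs 0, for the daily mean 5 (Loxl1 and Sparc added) and for CT13 1 (Lox). With array weights it was 1 for MUT rhythms (Fn1), 2 for differing rhythms (Adamts5 added), 3 at CT7 (Fn1 added) and 1 at CT19 (Timp3). With the fibroblast and preadipocyte score as a covariate 2 were rhythmic in CON and 1 differed at CT7, and with the mesothelium score 2 were rhythmic in CON and 2 differed in the daily mean. Without the 3 arrays of narrow spread the counts were 2 in CON, 0 for differing rhythms, 2 for the daily mean and 0 at CT7. For the other listed genes this setting was added after seeing the data. Without a cosine the counts were 3 in CON and 0 for differing rhythms. With each array left out in turn the counts ran from 3 to 4 in CON, 0 to 1 in MUT (1 without CON CT13 replicate 3), 0 to 2 for differing rhythms (2, with Mmp2, without MUT CT13 replicate 2), 3 to 4 for the daily mean (4, with Loxl1, without MUT CT1 replicate 1) and 2 to 2 at CT7. They were 0 to 0 at CT1, 0 to 1 at CT13 (Lox without CON CT13 replicate 3) and 0 to 1 at CT19 (Timp3 without MUT CT19 replicate 3). With the replicate block, the letters of the titles, the counts were 4, 0, 1, 3, 0, 2, 0 and 0, and no call of a member changed. Same-letter arrays did not deviate together (mean correlation of deviations -0.015 over 84 pairs, from -0.431 to 0.337, and 0.007 over 168 pairs of other letters), so the letters were not taken to pair the mice. No member with a call changed direction under these alternatives, and quantile normalization, both level filters and the trended variance changed no call of a member. The cause of these changes was not tested.

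Over all genes and the settings other than a single omitted array, counts ran from 930 (fibroblast score) to 4194 (array weights) around 2650 for rhythms in CON, from 19 (mesothelium score) to 555 (array weights) around 54 in MUT, and from 161 (no level filter) to 737 (array weights) around 223 for differing rhythms. They ran from 296 (without those 3 CON arrays) to 4778 (array weights) around 3365 for the daily mean, from 3 to 58 around 7 at CT1, from 49 to 2727 around 629 at CT7, from 0 to 236 around 50 at CT13 and from 330 to 1642 around 425 at CT19. With single arrays left out they ran from 1843 (CON CT7 replicate 3) to 2892 for rhythms in CON, 26 (MUT CT7 replicate 1) to 141 (MUT CT13 replicate 1) in MUT, 119 (MUT CT19 replicate 1) to 371 (MUT CT13 replicate 2) for differing rhythms and 2146 (CON CT13 replicate 1) to 4131 for the daily mean. At CT1 they ran from 0 (CON CT1 replicate 1, MUT CT1 replicates 1 and 3) to 18 (CON CT13 replicate 3), at CT7 from 191 (CON CT7 replicate 3) to 732, at CT13 from 4 (CON CT13 replicate 1) to 196 (CON CT13 replicate 3) and at CT19 from 36 (CON CT19 replicate 2) to 623. Of the genes called in the daily mean, 56.5% were higher in MUT, and 87.7% with arrays shifted to the same median, which put the median difference of all genes at 0.048, against 0.003 as deposited. At CT7 the share was 73.4%, and 89.8% with shifted medians, at CT13 72% and 93.2%, and at CT19 70.4% and 85%. At CT1, with few calls, it was 71.4%, and 54.5% after quantile normalization.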
